A study of Mus musculus with 70 samples.

Results

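The comparison is of microglia from tamoxifen-treated pups without Cre recombinase that received UC2288 and of microglia from such pups that received vehicle. Its members are 8 of the 70 libraries of the series, chosen by sample title from 1 table of gene counts that holds 21 libraries: 3 libraries labelled UC2288 and 5 labelled vehicle. All 8 carry the genotype label Cx3cr1+/+ (wild type). UC2288 was injected into the abdomen at 100 mg/kg in oil from corn with 2% DMSO added. What the vehicle held, when and how often the pups were injected, and whether each library is a separate animal are not stated, so p-values measure the spread between these libraries, which may be partly technical. Pups had tamoxifen at 0.1 mg on P1 and P3 or at 0.2 mg on P5 and P7, and were P8 or P14; neither is given per library. Each library was made from 15 of 30 uL of lysate of 500 CD11b+ CD45+ Ly6G- CD206- brain cells by CEL-Seq2, which counts transcripts by a tag near their 3' end.

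Microglia are the resident macrophages of the brain, and in the first postnatal weeks they still divide while they take up debris and dying cells. Cdkn1a encodes p21, which binds cyclin-dependent kinases and halts the cell cycle, usually under control of p53. UC2288 was given in the study to block p21 function. Pups without Cre show what the compound does to microglia in which no recombinase is at work. Glucocorticoid hormones, which circulate at higher levels under stress, act through the glucocorticoid receptor to raise genes such as Fkbp5, Tsc22d3, Per1, Ddit4 and Sgk1 in many cell types.

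The UC2288 libraries were not alike. Levels are given as CPM, counts scaled to the library's normalised total. On the log2 scale over the 4953 genes tested, UC2288 libraries 1 and 2 correlated with the vehicle libraries at a mean r of 0.832 and 0.830, and library 3 at 0.895. Each vehicle library correlated with the other vehicle libraries at a mean r between 0.885 and 0.894. UC2288 library 1 correlated with library 2 at 0.856 and with library 3 at 0.831, and library 2 with library 3 at 0.822. Library totals ran from 116083 counts in UC2288 library 2 to 223216, with 10353 to 11781 genes detected. Sex-linked transcripts put UC2288 libraries 1 and 2 with males and library 3 with females, against 2 male and 3 female vehicle libraries. The results that follow are therefore given by library, and fitted changes and list medians also without UC2288 library 1.

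A property shared by UC2288 libraries 1 and 2 was that genes spread over a long stretch of genome stood higher and compact genes lower than in vehicle. Across 4951 genes with an annotated span, the Spearman correlation between gene span and the deviation from the vehicle mean was 0.443, 0.345 and -0.076 in UC2288 libraries 1, 2 and 3, against -0.103 to 0.058 in the vehicle libraries, each set against the other vehicle libraries. Set against the same Cre- vehicle mean, it was 0.309 to 0.431 in the Cre+ libraries with tamoxifen and vehicle, which had no UC2288. In Cre+ libraries with UC2288 it was -0.143 to 0.344, and in those with oil -0.150 to -0.056. When these genes were put in 10 bins by span, the bin of the longest genes, with a median span of 155 kb, had a median deviation of 0.43, 0.38 and -0.00099 on the log2 scale in UC2288 libraries 1, 2 and 3. In the bin of the most compact genes, with a median span of 1.80 kb, it was -0.52, -0.38 and 0.14. The 295 genes (5.96% of those tested) higher with UC2288 at an unadjusted p under 0.05 had a median span of 58.3 kb and the 175 lower ones (3.53%) 10.9 kb, against 24.5 kb for all tested genes. Without UC2288 library 1 the medians were 45.6 kb for 122 higher (2.30% of 5314) and 16.6 kb for 112 lower genes (2.11%). Ribosomal protein genes, which are compact, made up 6.10%, 6.08% and 8.32% of the counts of UC2288 libraries 1, 2 and 3, against 7.11% to 8.27% in vehicle. The part of gene span in the gene results that follow, the difference between Cre- and Cre+ pups among them, was not tested.

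**Figure D1:**
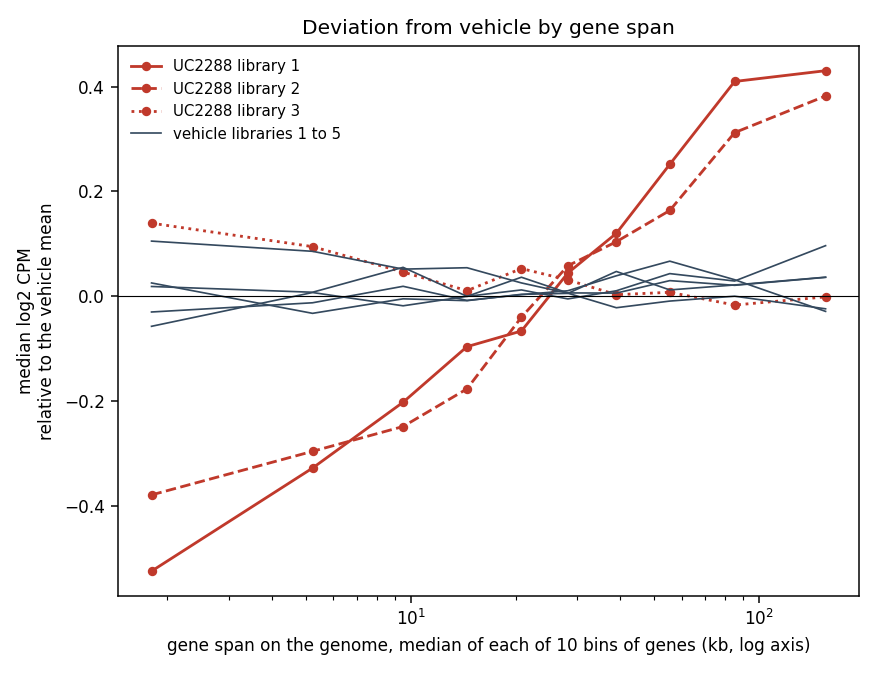
Median deviation of each of 10 bins of the tested genes from the vehicle mean (y axis, log2 CPM) against their median span on the genome (x axis, kb, log scale), with 1 line per library of the Cre- pups. UC2288 libraries 1 and 2 run from -0.52 and -0.38 in the most compact bin to 0.43 and 0.38 in the longest, while UC2288 library 3 lies close to the 5 vehicle libraries, each of which is part of the mean it is set against.

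Cdkn1a, the gene of the compound's target, was not detectably different with UC2288. It had 154, 119.9 and 45.6 CPM in the UC2288 libraries, against 69.3, 165, 79.2, 118 and 134 CPM in the vehicle libraries. The lowest value of all 8 was UC2288 library 3, and the 2 other UC2288 libraries lay inside the vehicle range. The log2 fold change was -0.08 ± 0.35 (SE) with a 95% interval of -0.80 to 0.63 and an adjusted p of 0.956. Without UC2288 library 1 it was -0.55 ± 0.43, with an interval of -1.43 to 0.32 and an adjusted p of 0.994. The transcript level does not measure the p21 protein that the compound was given to act on. As a check of the genotype label, Cx3cr1, the microglial fractalkine receptor whose locus holds Cre in Cre-positive mice, had 2761, 3674 and 3359.7 CPM in the UC2288 libraries, against 3158, 2719, 2911, 3148 and 2925 CPM in the vehicle libraries, and these groups overlapped.

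Pim1 was the single gene that passed the test. It rose in all 3 UC2288 libraries. Pim1 encodes a serine/threonine kinase that promotes growth and survival and is induced by cytokine signals through STAT factors. It had 159, 68.5 and 85.4 CPM in the UC2288 libraries, against 20.8, 17.1, 21.1, 24.9 and 11.6 CPM in the vehicle libraries, so the lowest UC2288 value was above the highest vehicle value. In counts, these are 56 with UC2288, or 23 without library 1, against 16 with vehicle. The vehicle values are thus near the 14.5 to 25.7 CPM that 3 counts make in these libraries. The mean was 104 ± 48.3 CPM in the UC2288 libraries (SD, n = 3) and 19.1 ± 5.01 CPM in the vehicle libraries (SD, n = 5). Its log2 fold change was 2.47 ± 0.40 with an interval of 1.66 to 3.28, and its adjusted p was 0.00216 in edgeR's quasi-likelihood test. With only the 8 libraries in the fit, the adjusted p of Pim1 was 0.0199 in the same test. With all 21 libraries, Pim1 was the 1 gene called of 4953 tested, 0.0202%, and no gene was called lower. Without UC2288 library 1, Pim1 stayed above vehicle at a log2 fold change of 1.99 ± 0.47 (interval 1.04 to 2.94, unadjusted p 0.000147), but its adjusted p over 5314 genes was 0.779 and no gene was called. In that fit 234 genes (4.40%) had an unadjusted p under 0.05, against 470 (9.49%) with all 3 libraries, and DESeq2 also called Pim1 alone with all 3. In limma-voom the adjusted p of Pim1 was 0.194 and no gene was called, with 483 at an unadjusted p under 0.05. In bulk samples, a change in RNA per cell and a change in the share of cells that carry it cannot be told apart.

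The start region of Pim1 is shown because it was the called gene, beside a start region of Sgk1 that holds a palindrome of the glucocorticoid receptor. Both were searched for the receptor's palindrome, spelled GNACA, then NNN, then TGTNC, and for TTCNNNGAA, the STAT palindrome; each reads the same on both strands. Capitals mark matches, none of which overlaps another in these windows. The windows are those of RefSeq on GRCm38.p6 and run from 250 bases before to 50 bases after an annotated start. The Pim1 window lies on chr17:29490535-29490834 on the plus strand and that of Sgk1 on chr10:21993640-21993939 on the plus strand.
Pim1: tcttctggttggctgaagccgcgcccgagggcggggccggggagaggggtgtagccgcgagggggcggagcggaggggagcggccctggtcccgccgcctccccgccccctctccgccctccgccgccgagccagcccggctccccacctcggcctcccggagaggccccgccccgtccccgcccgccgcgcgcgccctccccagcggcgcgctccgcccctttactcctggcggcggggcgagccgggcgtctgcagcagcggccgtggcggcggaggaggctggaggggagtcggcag
Sgk1: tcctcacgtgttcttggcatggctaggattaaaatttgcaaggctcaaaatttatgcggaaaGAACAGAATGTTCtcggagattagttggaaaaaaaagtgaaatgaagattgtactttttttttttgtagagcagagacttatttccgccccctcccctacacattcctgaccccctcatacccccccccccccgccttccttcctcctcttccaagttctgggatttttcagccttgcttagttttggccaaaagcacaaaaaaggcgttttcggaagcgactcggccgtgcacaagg

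Neither palindrome was found in the first Pim1 window or in its second, on chr17:29492835-29493134. This says only that these letters are not in these windows. Of the 23 genes of the glucocorticoid-responsive list in the count table, 20 had a RefSeq window, 31 windows in all. The receptor palindrome was found in 2 of these windows, 1 of Sgk1 and 1 of Mt1, and it is in 0.475% of all 32851 windows. The STAT palindrome was in 7 of the 31 windows, against 8.3% of all windows. Sgk1, a kinase of ion transport and survival, had 91.7, 154 and 154 CPM in the UC2288 libraries, against 132, 210.5, 158, 74.7 and 227 CPM in the vehicle libraries, with overlapping groups. Mt1, a metal-binding protein, had 159, 163 and 182 CPM in the UC2288 libraries, against 215, 159, 232, 131 and 209 CPM in the vehicle libraries, and its groups overlapped too.

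Among the other glucocorticoid-responsive genes, Fkbp5 and Ddit4 were high in UC2288 library 1 alone of the 8 libraries. Fkbp5, a co-chaperone of the glucocorticoid receptor and one of its best known targets, had 410.3, 25.7 and 34.2 CPM in the UC2288 libraries, against 27.7, 34.1, 26.4, 43.6 and 46.5 CPM in the vehicle libraries. Ddit4, an inhibitor of mTORC1, had 270.3, 25.7 and 5.69 CPM in the UC2288 libraries, against 13.9, 5.69, 10.6, 6.22 and 46.5 CPM in the vehicle libraries. In both genes UC2288 library 1 stood far above the 7 other libraries, and libraries 2 and 3 were at or below the top of the vehicle range. The log2 fold change of Fkbp5 was 2.23 ± 0.54 (adjusted p 0.233) with library 1 and -0.22 ± 0.62 without it. That of Ddit4 was 2.67 ± 0.70 (adjusted p 0.233) with library 1 and -0.24 ± 1.00 without it. Neither passed the test in either fit. In tamoxifen-treated Cre+ pups, Fkbp5 had 35.4 to 157 CPM with UC2288, against 15.1 to 47.1 CPM with vehicle. Ddit4 had 14.2 to 83.7 CPM with UC2288 there, against 7.54 to 43.5 CPM with vehicle. Both genes were highest in UC2288 Cre+ library 2. In that library the glucocorticoid-responsive list had a median deviation of 1.86 from the Cre- vehicle mean, against 1.09 in UC2288 Cre- library 1.

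Per1, a repressor of the circadian clock that glucocorticoids also induce, was too low to be tested and was high in UC2288 libraries 1 and 3. It had 72.4, 8.56 and 28.5 CPM in the UC2288 libraries, against 0, 0, 0, 6.22 and 5.82 CPM in the vehicle libraries. The values of UC2288 library 2 and of vehicle libraries 4 and 5 are 1 count each. In all these are 21 counts against 2, a ratio of pooled counts of 17.7 with an exact 95% interval of 4.33 to 156. Without library 1 there were 6 counts and the ratio was 8.64 (1.55 to 87.5); such intervals cover counting error only. Tsc22d3, which encodes the anti-inflammatory protein GILZ, had 9 counts with UC2288 against 11 with vehicle, a ratio of 1.38 (0.505 to 3.66), or 0.786 (0.141 to 2.97) without library 1. Of the 7 list members tested, Pim1 was called, 5 had a log2 fold change above 0, and the median was 0.67, against -0.0076 for all tested genes. Without library 1 the median was -0.08. The summed level of the list was 1892, 951 and 1014 CPM in the UC2288 libraries, against 740.4 to 942 CPM in the vehicle libraries. Both the median and the sum include Pim1, the called gene, so they are not separate from its result. The sum also includes Lcn2, a neutrophil marker that had counts in UC2288 library 1 alone.

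**Figure D2:**
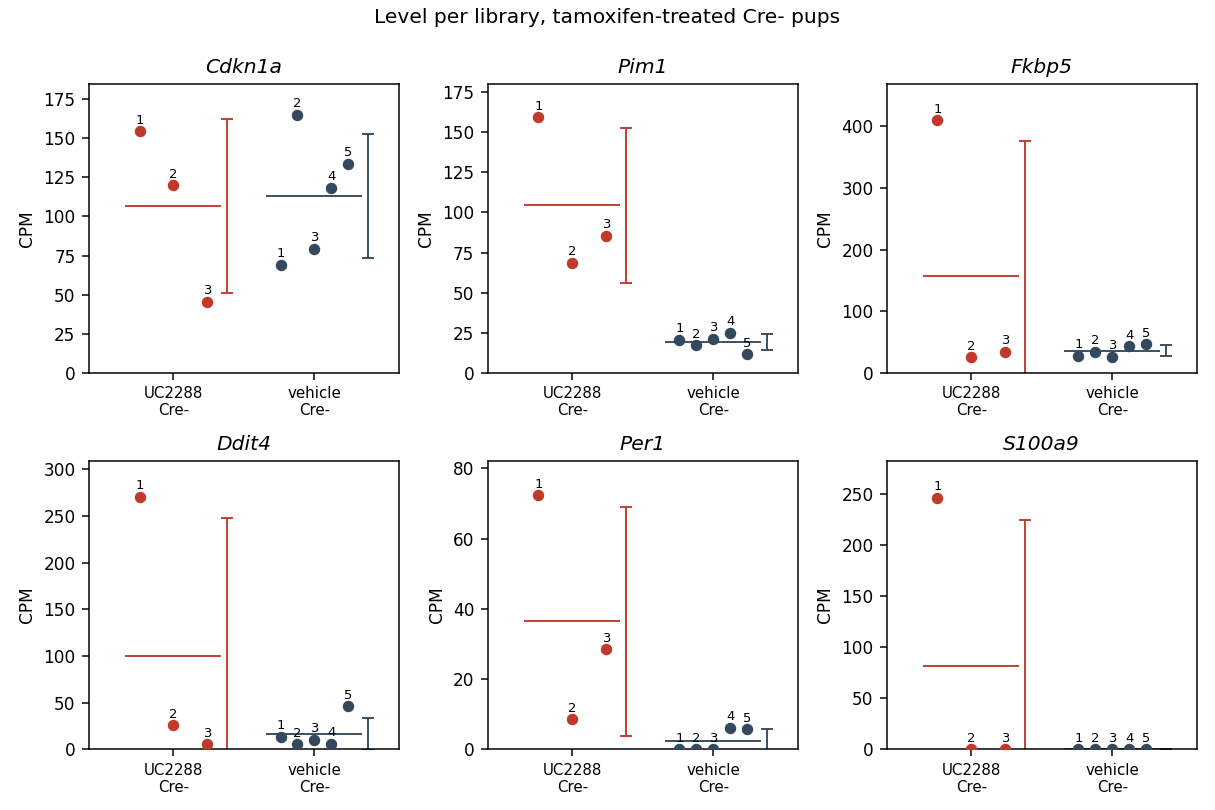
CPM of 6 genes (y axes) in the UC2288 and vehicle libraries of Cre- pups, with the library number above each point, the mean as a line and the SD as a bar that is cut at 0. Pim1 separates the groups, Cdkn1a does not, and Fkbp5, Ddit4 and S100a9, a neutrophil marker, are high in UC2288 library 1 alone.

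UC2288 library 1 also carried neutrophil transcripts. Of 11 neutrophil markers in the table, 10 had counts in it, and 9 of these had none in the 7 other libraries. S100a8 and S100a9, the calprotectin subunits, had 212 and 246 CPM there. Camp, a granule antimicrobial peptide, had 82.1 CPM, and Ngp, another granule protein, 135 CPM. All 4 were at 0 in each of the 7 other libraries, where 3 counts, the limit that a count of 0 allows, correspond to 15.8 to 25.7 CPM. The summed level of the list was 859, 8.56 and 5.69 CPM in the UC2288 libraries, against 0 to 27.7 CPM in the vehicle libraries. The sort gate excluded Ly6G+ cells. Lcn2, which is both a neutrophil marker and a member of the glucocorticoid list, had its 18 counts in this library alone. Cd300lf, an inhibitory receptor of myeloid cells, had 62.8, 0 and 5.69 CPM in the UC2288 libraries, against 0 to 6.93 CPM in the vehicle libraries. Whether these transcripts have a part in the Fkbp5, Ddit4 and Pim1 values of library 1 was not tested. In UC2288 libraries 2 and 3, where neutrophil markers summed to 8.56 and 5.69 CPM, Pim1 was at 68.5 and 85.4 CPM.

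In no list of markers of another cell type did all 3 UC2288 libraries lie on 1 side of the vehicle range. Monocyte markers summed to 77.2, 8.56 and 11.4 CPM in the UC2288 libraries, against 10.6 to 39.8 CPM in the vehicle libraries, and the astrocyte list, carried mostly by Slc1a3, to 106, 51.4 and 39.9 CPM in the UC2288 libraries, against 22.8 to 62.2 CPM in the vehicle libraries. Mrc1 encodes CD206, against which the cells were sorted, and it was present in every library. It had 314, 462 and 666 CPM in the UC2288 libraries, against 311 to 485 CPM in the vehicle libraries, with a log2 fold change of 0.35 (adjusted p 0.702), or 0.59 without library 1. The border macrophage list summed to 550.3, 702 and 831 CPM in the UC2288 libraries, against 444 to 665 CPM in the vehicle libraries, so that libraries 2 and 3 were above the vehicle range. Its 3 tested genes had a median log2 fold change of 0.35, or 0.57 without library 1, and none was called. F13a1 and Siglec1, 2 genes of that list, had 0 counts in all 8 libraries and Cd163 had 0 in the UC2288 libraries and 1 in the vehicle libraries, while Pf4 had 0, 0 and 11.4 CPM in the UC2288 libraries, against 5.69 to 41.6 CPM in the vehicle libraries. Stab1, a scavenger receptor on that list, had 212, 206 and 102 CPM in the UC2288 libraries, against 74.0 to 162 CPM in the vehicle libraries, a log2 fold change of 0.79 (adjusted p 0.449) and 0.57 without library 1. Haemoglobin and other erythroid transcripts summed to 9.65, 25.7 and 0 CPM in the UC2288 libraries, against 10.6 to 489 CPM in the vehicle libraries, the highest value being vehicle library 5. Neuronal markers summed to 212, 445 and 262 CPM in the UC2288 libraries, against 227 to 603 CPM in the vehicle libraries, the lymphocyte list to 275, 428 and 592 CPM in the UC2288 libraries, against 349 to 554 CPM in the vehicle libraries, the oligodendrocyte lineage to 77.2, 85.6 and 62.6 CPM in the UC2288 libraries, against 43.6 to 128 CPM in the vehicle libraries and the endothelial and mural list to 246, 248 and 359 CPM in the UC2288 libraries, against 285 to 454 CPM in the vehicle libraries. Ependymal and choroid plexus markers were at 0 in all UC2288 libraries.

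Several genes were higher in all 3 UC2288 libraries than in any vehicle library without passing the test. Groups that do not overlap in this direction were seen for 127 genes, 2.56% of those tested, and in the other direction for 111 genes, 2.24%. Rreb1, a zinc-finger factor that responds to Ras signalling, had 164, 111 and 79.7 CPM in the UC2288 libraries, against 55.4, 56.9, 31.7, 31.1 and 40.7 CPM in the vehicle libraries. Its log2 fold change was 1.47 ± 0.33 (adjusted p 0.107), and 1.11 ± 0.39 without library 1. Herc1, a very large ubiquitin ligase, had 164, 154 and 91.1 CPM in the UC2288 libraries, against 48.5, 62.6, 37.0, 56.0 and 34.9 CPM in the vehicle libraries. Its log2 fold change was 1.50 ± 0.33 (adjusted p 0.107), and 1.30 ± 0.39 without library 1. In both genes library 3 was the lowest of the UC2288 values.

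Rap2a, a small GTPase of the Ras family, had the opposite order. It had 140.0, 163 and 194 CPM in the UC2288 libraries, against 76.2, 79.6, 84.5, 80.9 and 110.5 CPM in the vehicle libraries, so its difference was at least as large without library 1, at a log2 fold change of 1.04 against 0.93 with it (adjusted p 0.915 and 0.233). Nfxl1, a zinc-finger protein, was also lowest in library 1. It had 72.4, 111 and 102 CPM in the UC2288 libraries, against 10.6 to 55.4 CPM in the vehicle libraries, a log2 fold change of 1.41 with and 1.59 without library 1. Abca1, which exports cholesterol from cells, had 652, 617 and 529.6 CPM in the UC2288 libraries, against 360.2, 319, 412, 355 and 302 CPM in the vehicle libraries, a log2 fold change of 0.78 ± 0.24 with and 0.70 ± 0.27 without library 1 (adjusted p 0.304 and 0.994). Its UC2288 values were close together and all above the vehicle range.

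The RNA helicase gene Ddx50 had 149.6, 94.2 and 119.6 CPM in the UC2288 libraries, against 39.8 to 68.7 CPM in the vehicle libraries. For Phf20l1, a chromatin reader, the values were 149.6, 146 and 96.8 CPM in the UC2288 libraries, against 27.7 to 79.6 CPM in the vehicle libraries. Snx18, a sorting nexin of endocytic membranes, had 193, 223 and 159 CPM in the UC2288 libraries, against 79.6 to 111 CPM in the vehicle libraries. The log2 fold changes without library 1 were 0.97, 1.27 and 0.97, against 1.17, 1.41 and 1.00 with it. These 3 genes had adjusted p-values of 0.233 with all libraries and 0.994, 0.994 and 0.915 without library 1. Klf13, a zinc-finger factor, and Akap13, an A-kinase anchoring scaffold, were among the 10 genes with the smallest p-values, but their groups overlapped. Klf13 had 362, 77.1 and 148 CPM in the UC2288 libraries, against 64.0 to 111 CPM in the vehicle libraries and Akap13 had 502, 359.7 and 188 CPM in the UC2288 libraries, against 145 to 211 CPM in the vehicle libraries. Without library 1 their log2 fold changes were 0.60 and 0.60, against 1.42 and 1.00 with it.

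Among genes lower with UC2288, none passed the test. Smim19, a small membrane protein, had 4.83, 34.3 and 5.69 CPM in the UC2288 libraries, against 55.4, 62.6, 63.4, 62.2 and 34.9 CPM in the vehicle libraries, a log2 fold change of -2.12 ± 0.54 (adjusted p 0.233) and -1.65 ± 0.60 without library 1. UC2288 library 2 almost met vehicle library 5, and the other UC2288 libraries had 1 count each. Mettl9, a histidine methyltransferase, had 24.1, 25.7 and 39.9 CPM in the UC2288 libraries, against 76.2, 114, 47.5, 124 and 64.0 CPM in the vehicle libraries. Its log2 fold change was -1.47 ± 0.42, and -1.31 ± 0.49 without library 1. Nucb2, a calcium-binding protein of the secretory pathway, had 9.65, 0 and 28.5 CPM in the UC2288 libraries, against 34.6 to 87.2 CPM in the vehicle libraries. The lowest UC2288 value, in library 2, is a count of 0, and the log2 fold change was -1.95 with and -1.70 without library 1.

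Aif1 encodes IBA1, the actin-binding protein by which microglia are commonly stained. It had 377, 325 and 524 CPM in the UC2288 libraries, against 644, 768, 639, 566 and 692 CPM in the vehicle libraries, lower in every UC2288 library than in any vehicle library. Its log2 fold change was -0.69 ± 0.22 (adjusted p 0.31), and -0.63 ± 0.26 without library 1 (adjusted p 0.994). Itfg1 and Snhg20, a host of small nucleolar RNAs, did not overlap between the groups either. Itfg1 had 38.6, 25.7 and 39.9 CPM in the UC2288 libraries, against 58.2 to 100.4 CPM in the vehicle libraries and Snhg20 had 24.1, 25.7 and 28.5 CPM in the UC2288 libraries, against 55.4 to 116 CPM in the vehicle libraries. Without library 1 their log2 fold changes were -1.26 and -1.46, against -1.18 and -1.51 with it. Vps29, a retromer subunit, had 72.4, 17.1 and 45.6 CPM in the UC2288 libraries, against 75.6 to 132 CPM in the vehicle libraries, and its log2 fold change was -1.50 without and -0.96 with library 1. Cwc15, a splicing factor, overlapped, with 62.8, 42.8 and 142 CPM in the UC2288 libraries, against 111 to 215 CPM in the vehicle libraries and a log2 fold change of -0.96 with and -0.75 without library 1. The fitted value of Sltm, a nuclear RNA-binding protein, came from the vehicle side: it had 164, 154 and 148 CPM in the UC2288 libraries, against 180.1, 159, 3233, 68.4 and 1297 CPM in the vehicle libraries, so vehicle libraries 3 and 5 stood far above the 6 others (log2 fold change -2.67 with and -2.73 without UC2288 library 1).

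**Figure D3:**
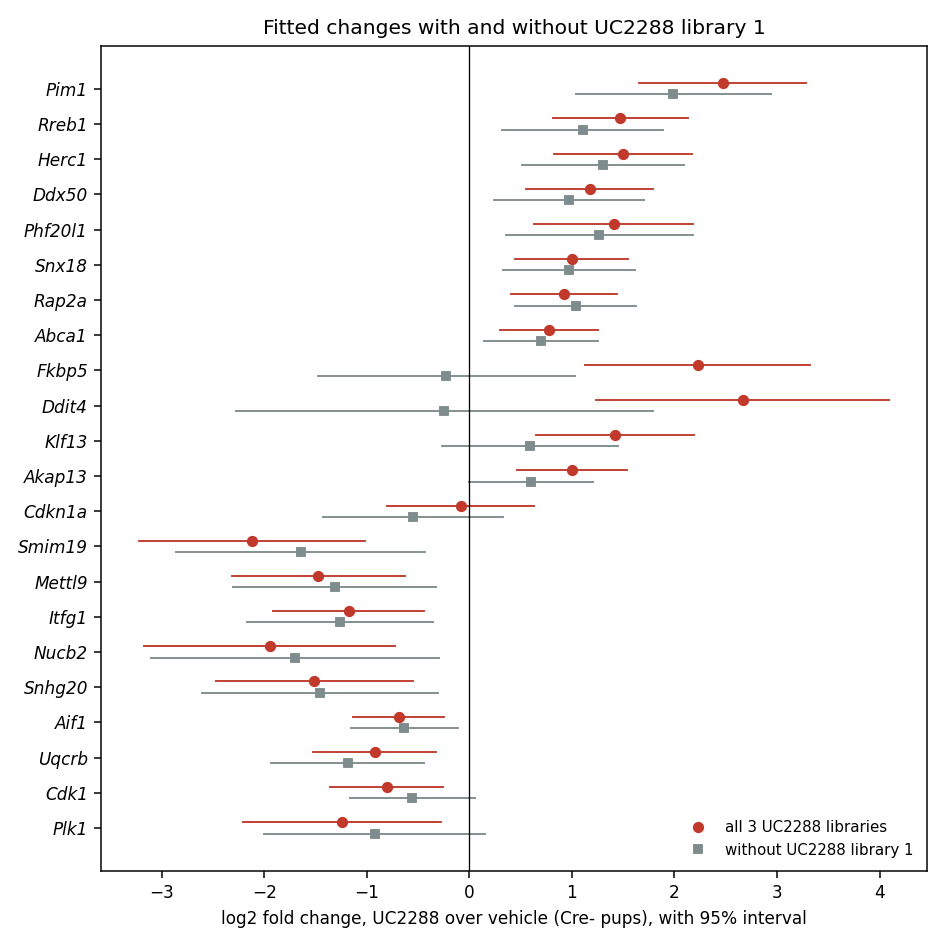
Log2 fold change, UC2288 over vehicle in Cre- pups (x axis), with its 95% interval for 22 genes named in the text, from all 3 UC2288 libraries (red circles) and without UC2288 library 1 (grey squares). Fkbp5 and Ddit4 lie at 2.23 and 2.67 with library 1 and at -0.22 and -0.24 without it, while Pim1 lies at 2.47 and 1.99.

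No gene of the division cycle, on which p21 acts, passed the test. In the G2 and mitosis list 27 of 38 genes were tested, none was called, 19 were below 0 and the median log2 fold change was -0.18, or -0.10 without library 1. Of all 4953 tested genes, 2511 were below 0. Cdk1, the kinase that starts mitosis, had 82.1, 128 and 159 CPM in the UC2288 libraries, against 180.1, 222, 238, 236 and 186 CPM in the vehicle libraries, with a log2 fold change of -0.80 ± 0.27 (adjusted p 0.331) and -0.56 ± 0.30 without library 1. Its 3 UC2288 values were all below the vehicle values, and library 1 was the lowest. Ube2c, which loads ubiquitin for the anaphase-promoting complex, had 43.4, 51.4 and 91.1 CPM in the UC2288 libraries, against 104 to 143 CPM in the vehicle libraries. Plk1, a mitotic kinase, had 14.5, 25.7 and 34.2 CPM in the UC2288 libraries, against 42.3 to 79.6 CPM in the vehicle libraries. The log2 fold changes of Ube2c and Plk1 were -0.92 and -1.24, and -0.68 and -0.92 without library 1. Of these 3 genes, none had an adjusted p below 0.331 with all libraries. Summed over the list, the level was 4822, 5369.9 and 6862 CPM in the UC2288 libraries, against 5915 to 7126 CPM in the vehicle libraries, so that library 3 lay inside the vehicle range and the others below it.

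In the S phase list 19 of 28 genes were tested, with a median of -0.15 and -0.11 without library 1. By library its median deviation from the vehicle mean was -0.09, -0.29 and 0.31 in UC2288 libraries 1, 2 and 3, against -0.22 to 0.29 in the vehicle libraries. Dnmt1, the maintenance DNA methyltransferase, had 67.6, 119.9 and 96.8 CPM in the UC2288 libraries, against 34.9 to 80.9 CPM in the vehicle libraries, a log2 fold change of 0.59 with and 0.80 without library 1. Among cyclins, kinases and their inhibitors the median of 15 tested genes was -0.08, or -0.026 without library 1 and 0.04 by library totals. Cdk6, a kinase of the G1 phase, was high in libraries 1 and 2. It had 386, 445 and 199 CPM in the UC2288 libraries, against 173, 165, 201, 268 and 204 CPM in the vehicle libraries, a log2 fold change of 0.75 ± 0.25 (adjusted p 0.331) and 0.63 ± 0.29 without library 1. UC2288 library 3 was inside the vehicle range. Of the p53 and DNA damage list, 11 of 31 genes were tested, none had an unadjusted p under 0.05 in either direction, and the summed level was 811, 771 and 769 CPM in the UC2288 libraries, against 666 to 871 CPM in the vehicle libraries.

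Genes of energy production were low in UC2288 libraries 1 and 2 and not in library 3. Of the nuclear-encoded respiratory chain list, 72 of 74 genes were tested, none was called, and 61 were below 0, against 2511 of all 4953 tested genes. The median log2 fold change was -0.34, and without library 1 it was -0.19. By library, the median deviation from the vehicle mean was -0.50, -0.53 and 0.16 in UC2288 libraries 1, 2 and 3, against -0.10 to 0.08 in the vehicle libraries. All 10 mitochondrially encoded mRNAs tested were below 0, with a median of -0.32 and -0.22 without library 1. Their deviations by library were -0.60, -0.67 and 0.19 with UC2288, against -0.07 to 0.18 with vehicle. Low values were also seen in Cre+ libraries with tamoxifen and vehicle, which had no UC2288. There, against the same Cre- vehicle mean, the respiratory chain stood at -0.63 to -0.33 and the mitochondrial mRNAs at -1.51 to -0.92. In Cre+ libraries with UC2288 these were -0.31 to 0.32 and -1.08 to -0.16. Without libraries 1 and 2 the medians were 0.13 for the respiratory chain and 0.17 for the mitochondrial mRNAs; this leaves library 3 alone, 1 library that is assumed to vary like those of the other groups.

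Uqcrb, a subunit of complex III, was lower in all 3 UC2288 libraries. It had 82.1, 51.4 and 56.9 CPM in the UC2288 libraries, against 97.0, 102, 132, 137 and 151 CPM in the vehicle libraries, with a log2 fold change of -0.92 ± 0.29 (adjusted p 0.311) and -1.19 ± 0.37 without library 1 (adjusted p 0.915). Ndufa1, a subunit of complex I, had 48.3, 51.4 and 102 CPM in the UC2288 libraries, against 87.1 to 159 CPM in the vehicle libraries (log2 fold change -0.86 with and -0.63 without library 1). The mitochondrial gene mt-Co1, which encodes a subunit of complex IV, had 1352, 1353 and 2289 CPM in the UC2288 libraries, against 2507, 1649.8, 2239.8, 2856 and 3204 CPM in the vehicle libraries. Its UC2288 library 3 lay inside the vehicle range and the 2 other libraries below it, and the log2 fold change was -0.58 with and -0.46 without library 1. Ribosomal RNA of the mitochondrion made up 6.41%, 4.44% and 8.94% of the counts of UC2288 libraries 1, 2 and 3, against 5.76% to 10.1% in vehicle.

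**Figure D4:**
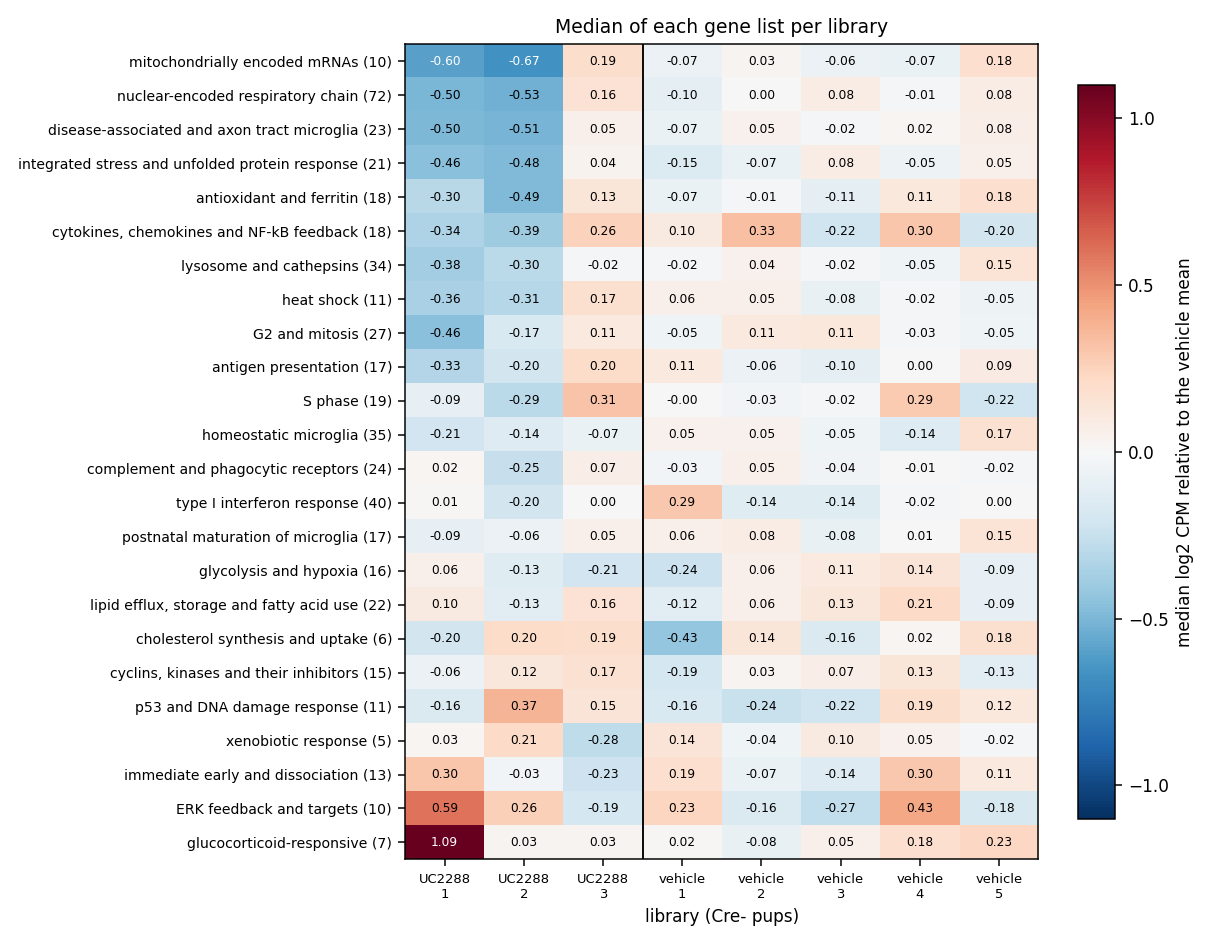
Median over the tested genes of each list (rows, number of genes in brackets) of log2 CPM relative to the vehicle mean, by library of the Cre- pups (columns). UC2288 libraries 1 and 2 share low values in the upper rows, such as -0.60 and -0.67 for mitochondrial mRNAs, UC2288 library 3 does not, and the glucocorticoid-responsive list stands at 1.09 in library 1 alone; each vehicle library is part of the mean it is set against.

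Genes of microglial identity and of the lysosome showed no call. The homeostatic list had all 35 genes tested, 21 below 0 and a median of -0.10, or -0.096 without library 1 and 0.02 when scaled by library totals, which moved the median of all genes to 0.12. Mef2a, a transcription factor of microglia, had 618, 548 and 313 CPM in the UC2288 libraries, against 284 to 378 CPM in the vehicle libraries, and its log2 fold change was 0.65 with and 0.42 without library 1. The postnatal maturation list had a median of -0.09 over 17 tested genes, or -0.061 without library 1 and 0.06 by library totals. In the lysosome and cathepsin list 29 of 34 tested genes were below 0, with a median of -0.28 and -0.21 without library 1. By library its median deviation was -0.38, -0.30 and -0.02 in UC2288 libraries 1, 2 and 3, against -0.05 to 0.15 in the vehicle libraries. Against the same Cre- vehicle mean it was -0.44 to -0.29 in Cre+ libraries with tamoxifen and vehicle, which had no UC2288. Grn, the precursor of lysosomal granulins, had 2182, 1978 and 1987 CPM in the UC2288 libraries, against 2812, 3334, 2736, 2812 and 2536 CPM in the vehicle libraries. All 3 UC2288 values were below the vehicle range, at a log2 fold change of -0.47 ± 0.18 (adjusted p 0.392) and -0.53 ± 0.22 without library 1. Npc2, which hands cholesterol out of the lysosome, had 478, 479.6 and 672 CPM in the UC2288 libraries, against 609.7 to 808 CPM in the vehicle libraries. Cd63, a tetraspanin of late endosomes, had 830.3, 539.6 and 1008 CPM in the UC2288 libraries, against 896 to 1303 CPM in the vehicle libraries. The log2 fold changes of Npc2 and Cd63 were -0.44 and -0.49, and -0.36 and -0.53 without library 1.

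The list of disease-associated and axon tract microglia, cells that clear myelin debris in young white matter, had 19 of 23 tested genes below 0 and a median of -0.33, or -0.27 without library 1. By library its median was -0.50, -0.51 and 0.05 with UC2288, against -0.07 to 0.08 with vehicle. Spp1, which encodes osteopontin and marks these cells, had 53.1, 17.1 and 34.2 CPM in the UC2288 libraries, against 180.1, 85.3, 58.1, 162 and 17.4 CPM in the vehicle libraries, a log2 fold change of -1.37 ± 0.54 (adjusted p 0.392) and -1.84 ± 0.69 without library 1. Vehicle library 5 was as low as UC2288 library 2. The chemokine gene Ccl3 had 29.0, 8.56 and 74.0 CPM in the UC2288 libraries, against 47.5 to 118 CPM in the vehicle libraries, and Ccl6 had 77.2, 77.1 and 131 CPM in the UC2288 libraries, against 98.9 to 256 CPM in the vehicle libraries. Their log2 fold changes were -1.09 and -0.78, and -0.88 and -0.63 without library 1. Mertk, a receptor for dying cells, had 343, 299.8 and 188 CPM in the UC2288 libraries, against 159 to 205 CPM in the vehicle libraries, a log2 fold change of 0.61 (adjusted p 0.405) and 0.39 without library 1.

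No type I interferon gene passed the test. Of the type I interferon list 40 of 41 genes entered the test, some of them through the Cre-positive libraries fitted with these, and 7 had 0 counts in all UC2288 libraries and 6 in all vehicle libraries. The list summed to 734, 565 and 968 CPM in the UC2288 libraries, against 666 to 1074 CPM in the vehicle libraries, and its median log2 fold change was 0.01, or -0.042 without library 1. In 2 of the 40 tested members, Dhx58 and Ifi27l2a, all 3 UC2288 libraries were below the vehicle range. Over all 4953 tested genes this held for 111, or 2.24%. Dhx58, a regulator of RNA sensing, had 0, 0 and 5.69 CPM in the UC2288 libraries, against 12.4 to 28.4 CPM in the vehicle libraries. This is 1 count with UC2288 against 15 with vehicle, a ratio of 0.112 with an exact interval of 0.00267 to 0.731. Ifi27l2a, an interferon-induced gene, had 4.83, 8.56 and 11.4 CPM in the UC2288 libraries, against 17.1 to 26.4 CPM in the vehicle libraries (chosen after its values were seen). The vehicle values of both genes are near the 14.5 to 25.7 CPM that 3 counts make. B2m, the light chain of MHC class I, had 2616, 2749 and 4641 CPM in the UC2288 libraries, against 4841, 4499.9, 4131, 3833 and 5240.0 CPM in the vehicle libraries. Libraries 1 and 2 were below and library 3 was within the vehicle range, and the log2 fold change was -0.43 (adjusted p 0.557), or -0.29 without library 1.

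Stress lists did not show a call either. In the integrated stress and unfolded protein list the median of 21 genes was -0.24, and -0.19 without library 1. By library its median deviation from the vehicle mean was -0.46, -0.48 and 0.04 in UC2288 libraries 1, 2 and 3, against -0.15 to 0.08 in the vehicle libraries. Slc3a2, the heavy chain of amino acid transporters, had 372, 257 and 330.3 CPM in the UC2288 libraries, against 388, 558, 459.6, 473 and 471 CPM in the vehicle libraries, below the vehicle range in each UC2288 library (log2 fold change -0.54 ± 0.21, and -0.68 ± 0.24 without library 1; adjusted p 0.376 and 0.994). Hspe1, a mitochondrial co-chaperonin, had 304, 248 and 325 CPM in the UC2288 libraries, against 343 to 475 CPM in the vehicle libraries (log2 fold change -0.53 with and -0.56 without library 1). Of the medians that follow, the value without library 1 is given second. The heat shock list had -0.11 and -0.21, the antioxidant and ferritin list -0.20 and -0.19, the immediate early and dissociation list -0.03 and -0.15, and the cytokine, chemokine and NF-kB list -0.11 and -0.11. Antigen presentation had -0.19 and -0.051, complement and phagocytic receptors -0.08 and -0.096, and glycolysis and hypoxia -0.07 and -0.21. Lipid efflux and storage had 0.02 and 0.096. The median of ERK feedback changed sign, with 0.17 and -0.044, and so did that of cholesterol synthesis, with -0.04 and 0.03. The xenobiotic response list, which would include enzymes that clear foreign compounds, had 5 of 27 genes tested and medians of 0.29 and 0.22. By library totals the heat shock, immediate early, cytokine, complement, glycolysis and cholesterol medians were above 0, at 0.01, 0.11, 0.0039, 0.05, 0.08 and 0.08. None of these lists had a called member with or without library 1. By library, UC2288 libraries 1 and 2 again stood apart from library 3 in several of them. The median deviation in libraries 1, 2 and 3 was -0.36, -0.31 and 0.17 for heat shock and -0.30, -0.49 and 0.13 for antioxidant and ferritin. It was -0.34, -0.39 and 0.26 for the cytokine list and -0.33, -0.20 and 0.20 for antigen presentation. ERK feedback went the other way, with 0.59, 0.26 and -0.19.

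Whether UC2288 acted alike in pups with and without Cre was tested as the difference between its effect in Cre- pups and its effect in Cre+ pups, which had 5 UC2288 and 4 vehicle libraries, all after tamoxifen. Cre+ pups carry the tamoxifen-dependent Cre in 1 Cx3cr1 allele. The difference passed the test for 96 of 4953 genes (1.94%), 49 higher (0.989%) and 47 lower (0.949%) in Cre- relative to Cre+. Scaled by library totals it passed for 117 genes, 96 higher and 21 lower. Without UC2288 Cre- library 1 it passed for 1 of 5314 genes (0.0188%), and without UC2288 Cre- library 3 for 533. UC2288 Cre+ library 3 had 2047 CPM of Cx3cr1, against 741 to 1031 CPM in the other UC2288 Cre+ libraries. The count was 41 without that library, and 1 without it and UC2288 Cre- library 1.

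Pim1 was among the genes that passed, and here the vehicle groups differed in level. In Cre+ pups it had 34.1 to 126 CPM with UC2288, against 115 to 143 CPM with vehicle, which is above the 11.6 to 24.9 CPM of the Cre- vehicle libraries. The log2 fold change was 2.47 ± 0.40 in Cre- pups and -0.43 ± 0.28 in Cre+ pups (adjusted p 0.444). The difference was 2.91 ± 0.49 (adjusted p 0.0023), and 2.42 ± 0.54 without UC2288 Cre- library 1 (adjusted p 0.122). Cdkn1a had 567 to 862 CPM with UC2288, against 679 to 1063 CPM with vehicle in Cre+ pups, where the 8 Cre- libraries had 45.6 to 165 CPM. Its difference was 0.18 ± 0.43 (adjusted p 0.842), and -0.29 ± 0.49 without library 1.

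Hipk2, a kinase that acts on p53, had 48.3, 68.5 and 45.6 CPM in the UC2288 libraries, against 20.8, 5.69, 5.28, 31.1 and 11.6 CPM in the vehicle libraries in Cre- pups. In Cre+ pups it had 10.5 to 45.8 CPM with UC2288, against 18.5 to 76.1 CPM with vehicle. The difference was 2.90 ± 0.78 (adjusted p 0.0463). Map3k3, a kinase of stress-activated MAP kinase cascades, had 91.7, 77.1 and 51.2 CPM in the UC2288 libraries, against 13.9, 17.1, 21.1, 18.7 and 40.7 CPM in the vehicle libraries in Cre- pups. In Cre+ pups it had 0 to 49.6 CPM with UC2288, against 47.1 to 96.9 CPM with vehicle, a difference of 2.45 ± 0.65 (adjusted p 0.0463). Gtf2ird2, a factor of the TFII-I family, had 57.9, 60.0 and 34.2 CPM in the UC2288 libraries, against 13.9 to 28.4 CPM in the vehicle libraries in Cre- pups, 10.5 to 77.6 CPM with UC2288 in Cre+ pups and 50.8 to 173 CPM with vehicle there. Its difference was 2.64 ± 0.73 (adjusted p 0.0494). All 3 were higher with UC2288 in each Cre- library than with vehicle, and none of their differences passed without library 1 (adjusted p 0.191, 0.248 and 0.251). In the order Hipk2, Map3k3 and Gtf2ird2, the effect in Cre- pups alone did not pass edgeR's test (adjusted p 0.331, 0.304 and 0.491). That in Cre+ pups alone did not pass either (adjusted p 0.278, 0.356 and 0.101). The Cre- vehicle libraries held 12, 19 and 17 counts of these genes in all.

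In the other direction Wdr89 was the gene that passed in both fits. It had 48.3, 214 and 137 CPM in the UC2288 libraries, against 533, 592, 375, 131 and 419 CPM in the vehicle libraries in Cre- pups. In Cre+ pups it had 77.6 to 699 CPM with UC2288, against 13.8 to 52.6 CPM with vehicle. The difference was -4.98 ± 0.79 (adjusted p 0.00134), and -4.53 ± 0.81 without library 1 (adjusted p 0.0115). Its effect in Cre- pups alone was -1.71 ± 0.53 (adjusted p 0.304), and the groups overlapped. Sftpa1, which encodes a surfactant protein of the lung, had 24.1, 60.0 and 11.4 CPM in the UC2288 libraries, against 31.7 to 93.3 CPM in the vehicle libraries in Cre- pups. In Cre+ pups it had 20.4 to 111 CPM with UC2288, against 4.62 to 15.1 CPM with vehicle, a difference of -3.42 ± 0.76 (adjusted p 0.0256). The ribosomal protein pseudogene Rpl36-ps3 was also among the largest differences. No value is given for it, since it has near copies whose reads cannot be told apart.

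**Figure D5:**
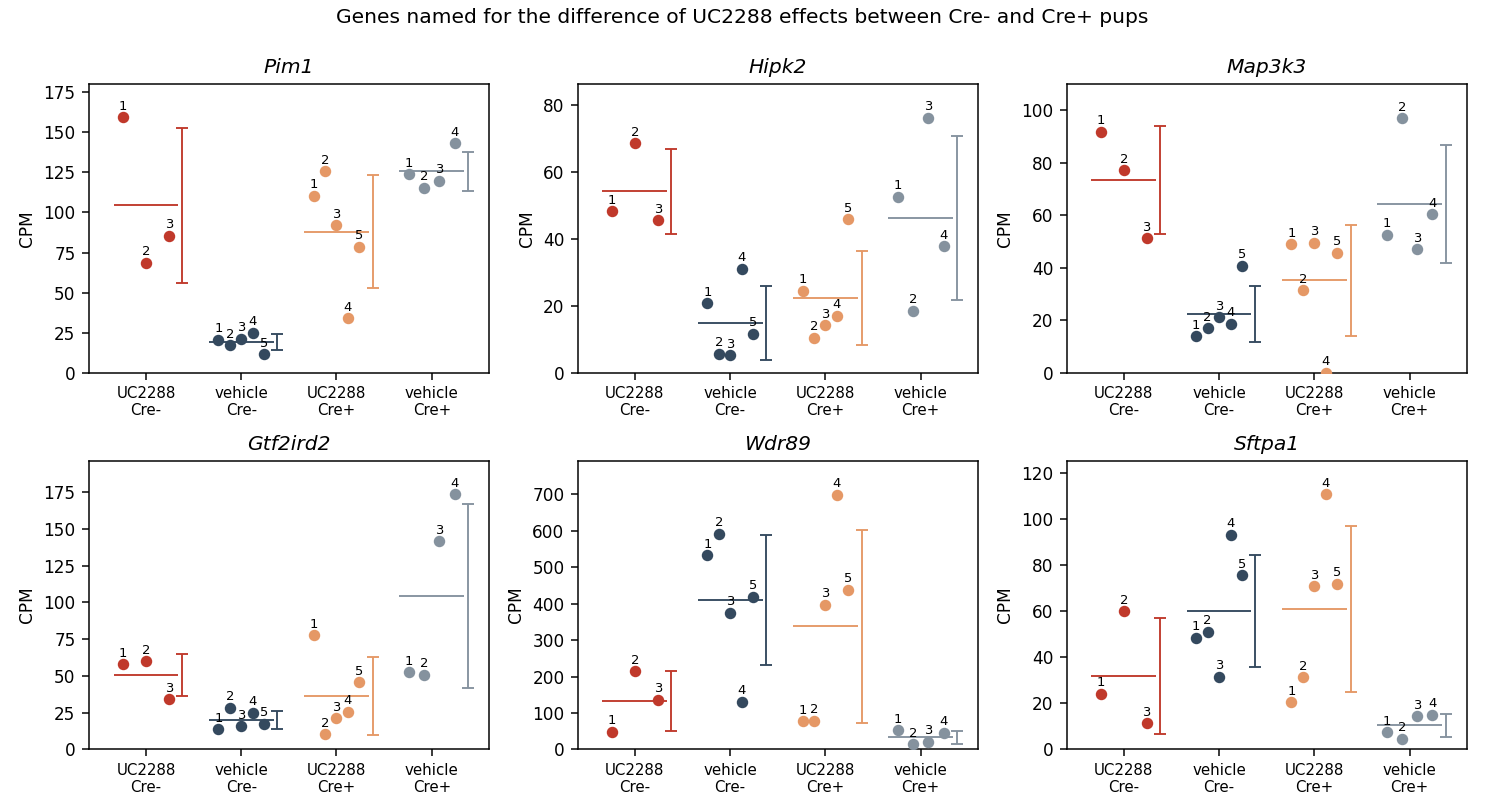
CPM of 6 genes (y axes) in the UC2288 and vehicle libraries of Cre- and Cre+ pups, all after tamoxifen, with the library number above each point, the mean as a line and the SD as a bar. For Pim1 the Cre- vehicle libraries lie at 11.6 to 24.9 CPM and the 3 other groups above them, and for Wdr89 the vehicle Cre+ libraries lie at 13.8 to 52.6 CPM.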

How the data were processed

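Bulk CEL-Seq2 libraries of 500 sorted microglia were compared. The authors deposited raw, whole-number counts of each gene in each library. Per the submitters' processing notes, reads went through UMI-tools, Trim Galore and HISAT2 to featureCounts, on GRCm38. The sources used here do not give versions, annotation or how shared reads were handled. Groups came from sample titles. All 21 libraries of the table entered 1 fit in edgeR 4.0.16 (R 4.3.3), with TMM scaling, filterByExpr by group and the quasi-likelihood test. P-values were adjusted by Benjamini-Hochberg over all genes tested, and a gene was called at an adjusted p under 0.05. Of 20722 genes, 178 had no counts and 4953 were tested (5314 without UC2288 library 1, since the smallest group then has 2 libraries). Totals of the 8 libraries were 116083 to 223216 counts, and 133598 to 277680 in the other 13. The biological coefficient of variation was 22.4%. No pair of libraries in a group agreed within sampling noise (lowest chi-square per degree of freedom 1.69). Levels are CPM on TMM-scaled totals, and log2 CPM used a prior count of 2. Gene spans came from GENCODE M21 (GRCm38). Ratios of low counts have exact 95% intervals. The fit was tested on simulated data with 200 changed genes. There the libraries of a group shared 1 mean per gene, so it does not bear on the differences between the UC2288 libraries.

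Named genes were Cx3cr1, Cdkn1a, all called genes, the 10 genes with the smallest unadjusted p in each direction at 20 CPM or more without predicted models, up to 2 members of each of 34 lists by p, and the 4 largest differences in each direction. The text gives a selection. Some genes that this rule names are not reported here. The neutrophil, Per1, Sgk1, Mt1, Tsc22d3, Pf4, Cd163, F13a1 and Siglec1 values are of list members chosen after their values were seen. The comparison, members and lists were chosen with earlier results of these data known. DESeq2 1.42.0, limma-voom (limma 3.58.1), other scalings, no filter, sex as a covariate, a replicate block and leaving out libraries were tried. Fits without UC2288 libraries 1 and 2, or without UC2288 Cre- library 1 and UC2288 Cre+ library 3, were chosen after seeing the data.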

Additional observations from a re-analysis of the deposited data

Results flagged for a closer look

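In 102 checks of single groups for a library that stands apart by Dixon's criterion, 11 found one, in 5 libraries in all, where chance gives about 1 in 20 groups. In the vehicle Cre- group, library 5 had 46.5 CPM of Ddit4, against 5.69 to 13.9 CPM in the others. It also had 34.9 CPM of Smim19, against 55.4 to 63.4 CPM. Its Rap2a level was 110.5 CPM, against 76.2 to 84.5 CPM, and its Map3k3 level 40.7 CPM, against 13.9 to 21.1 CPM. Erythroid markers summed to 489 CPM in it, against 10.6 to 24.9 CPM. Vehicle Cre- library 1 had 111 CPM of Klf13, against 64.0 to 74.7 CPM, a summed interferon list of 1074 CPM, against 666 to 774 CPM, and summed neuronal markers of 603 CPM, against 227 to 275 CPM. Vehicle Cre- library 4 had 162 CPM of Stab1, against 74.0 to 97.0 CPM. Vehicle Cre- library 2 had 5.69 CPM of ependymal and choroid plexus markers, which is 1 count, against 0. UC2288 Cre+ library 3 had 2047 CPM of Cx3cr1, against 741 to 1031 CPM in its group. The UC2288 group of Cre- pups has 3 libraries and was not checked in this way.

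The effect of UC2288 differed between Cre- and Cre+ pups in edgeR's test of that difference for 6 genes named in the text. The difference, Cre- minus Cre+ on the log2 scale, was 2.91 for Pim1, 2.90 for Hipk2, 2.64 for Gtf2ird2 and 2.45 for Map3k3. It was -4.98 for Wdr89 and -3.42 for Sftpa1. Without UC2288 Cre- library 1, Wdr89 alone of these passed the test.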

How the results depend on the processing

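UC2288 over vehicle in Cre- pups called 1 gene with TMM scaling, with size factors of the DESeq2 type (RLE), with library totals, in DESeq2, with sex as a covariate, in the 8 libraries alone and with a replicate block, and each time it was Pim1 (adjusted p from 0.00141 to 0.0327). It called 0 genes in limma-voom, 36 with no filter on low counts, 0 in the 7 libraries of the 2 groups without UC2288 library 1, 0 with sex as a covariate and without that library, and 2 without UC2288 libraries 1 and 2. Without 1 library at a time the count was 0 to 45: 0 without UC2288 library 1, 3 without library 2 (Fkbp5, Smim19 and Pim1), 45 without library 3 and 1 without each vehicle library in turn. Pim1, Fkbp5, Ddit4, Herc1 and Klf13 were called both with no filter and without library 3. Per1, Sltm, Wdr89, S100a8 and S100a9 were also called with no filter, and Rreb1, Akap13, Cdk6 and Cwc15 without library 3. Called list members numbered 11 with no filter, and 0 in limma-voom, in the 3 fits without UC2288 library 1 or libraries 1 and 2 just named, and 0 to 5 without 1 library. Library totals moved the median log2 fold change of all genes to 0.12, and the value of Cdkn1a to 0.078. Without 1 library, Cdkn1a ran from -0.55 to 0.29, Fkbp5 from -0.22 to 2.70, Ddit4 from -0.24 to 3.53 and Cd300lf from -0.063 to 3.17, the lowest value of each being without UC2288 library 1. With sex as a covariate and without that library, Fkbp5 was -0.22, Ddit4 -0.25 and Cd300lf -0.056. Without UC2288 libraries 1 and 2, Fkbp5 was -0.077, Ddit4 -1.45, Cdk6 -0.036, Mef2a -0.024 and B2m 0.024. The difference between Cre- and Cre+ gave 96 genes, and 163 in DESeq2 (51 higher, 112 lower), 179 with no filter, 46 with sex as a covariate and 58 with the replicate block. Of these, in the same order, 48, 78, 46 and 48 were among the 96. DESeq2 gave no adjusted p for the difference of Pim1. The difference gave 117 genes with library totals (96 higher, 21 lower), 70 of them among the 96. It gave 1 without UC2288 Cre- library 1 and UC2288 Cre+ library 3, and 1 to 533 without 1 library. The difference for Cdkn1a was -0.35 without those 2 libraries and -0.29 to 0.55 without 1 library. The replicate numbers share no pairing (correlations of deviations 0.0064, -0.030 and 0.022); the block left the count of Pim1 alone unchanged. The cause of these changes was not tested. At a total of 116083 to 223216 counts, 3 counts are 14.5 to 25.7 CPM, so small changes in genes of a few counts per library were not detectable. Pim1, which was called, had 16 counts over the 5 vehicle libraries.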
